A study of Drosophila melanogaster with 29 samples.

Results

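The genes described here encode the proteins of the fly mitochondrial ribosome and were taken as every probe with a single gene symbol starting mRpL or mRpS, case sensitive. That gave 128 of the 31464 spots on the embryo arrays, for 62 genes, and 66 of the 14010 probe sets on the adult arrays, for 64 genes. Together they cover 66 genes, 60 of them on both arrays, while the RefSeq table used for names lists 73 genes named this way. By their symbols, 84 spots and 45 probe sets belong to the large subunit, and 44 spots and 21 probe sets to the small subunit. On the embryo arrays 60 genes had 2 spots and 2 genes, mRpL3 and mRpS16, had 4. On the adult arrays mRpL11 and mRpL12 had 2 probe sets each and every other gene had 1. All member spots and probe sets had values and were tested, so no filter on low values acted on them.

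Mitochondria keep a small genome of their own, and the ribosome inside the organelle translates its messages into core subunits of the respiratory chain and ATP synthase. The ribosomal RNAs of that ribosome come from the mitochondrial genome, but its proteins are encoded in the nucleus, made in the cytosol and imported. Many have a counterpart in bacterial ribosomes, and others occur only in mitochondria. In flies the ovary is rich in mitochondria that are loaded into the egg, and flight muscle is rich in mitochondria that make ATP.

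The series measured gain and loss of menin, a nuclear protein whose human gene is the tumour suppressor MEN1. In mnn++ embryos a full-length Mnn1 cDNA on a UAS transgene was overexpressed with a GAL4 driver, and the 2 controls, cntrl1 and cntrl2, carried the driver without the construct. The labels do not say which cells the driver acts in or how the controls differ. Embryos were collected over 2-4, 4-6, 6-8 and 2-16 h from flies kept at 25 C, and each window was compared with each control on 2 arrays that carried both samples in opposite dye orientations, 16 arrays in all, while 2 more arrays set cntrl1 against cntrl2 at 2-16 h. Adults kept at 25 C to 3 to 5 days after eclosion were profiled on 11 arrays. The mnn- females were X46_Y79 (array 7) and Y79_X46 (array 8), and the mnn- males X46_Y79 (array 9), Y79_X46 (array 10) and Y79_Y79 (array 11). The heterozygous females were X113_Y79 (array 4) and X84_X46 (array 5). The non-mutant flies were 1 wt female (array 1), 1 wt male (array 2), and a female (array 3) and a male (array 6) of the X113_X84 control. In a free-text field all 11 adult samples are described as lacking the protein, against their titles, and groups follow the titles. Nothing in the labels says that arrays of a group came from separate cultures, so p-values measure the spread between these arrays, which may be technical. In adults the arrays of a class also differ in stock or alleles, and the spread includes such differences.

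Adult arrays of one sex and genotype class correlated at r = 0.981 to 0.995 over all probe sets, and male with female arrays at 0.813 to 0.877. Embryo arrays kept a dye bias, with a median correlation of 0.331 between arrays of one dye orientation and -0.248 between opposite ones, and the orientations were averaged before any test. The sign of the embryo ratios is not stated. A positive ratio is taken here as more RNA in mnn++, which is likely because the Mnn1 spots then read 0.25 to 0.84 and 0.40 to 0.79 (log2) on the 4 arrays of mnn++ at 2-16 h. In the 3 shorter windows Mnn1 was nearer to 0: on 12 arrays spot 12064 read -0.22 to 0.42 and spot 12724 -0.12 to 0.44, each below 0 on 3 of the 12. With dyes averaged, spot 12064 at 2-4 h read 0.03 over each control and spot 12724 0.05 over cntrl1 and 0.22 over cntrl2, little above the controls that the label mnn++ sets it against. The single adult Mnn1 probe set read 6.17 and 5.91 in mnn- females, 5.63 and 5.96 in heterozygous females and 5.63 and 5.75 in non-mutant females (log2 intensity). In males it read 5.50, 5.41 and 5.17 in mnn- and 5.51 and 5.40 in non-mutant flies, with overlapping groups. The difference of mnn- over non-mutant was 0.13 ± 0.10 (log2, SE; limma, adjusted p = 0.863), and whether the alleles remove the probed stretch is not given in the labels.

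One adult array went against its label in part. On the wt male array all 12 ovary marker probe sets, yolk protein genes among them, read higher than on each of the other 4 male arrays. Their mean was 7.80 against 5.49 to 5.55 (log2), while 10 of the 12 stayed below every female array. The excess was uneven: Cp36 read 9.97 against at most 6.93 in the other males, and bam 4.04 against at most 4.01. The yolk protein gene Yp1 read 11.61 on the wt male array, between the range of the other males (7.31 to 7.59) and that of females (13.19 to 13.60). Testis markers averaged 6.76 on the wt male array and 6.68 to 6.85 on the other male arrays. The main counts and medians that use the library labelled wt male are given below with and without it.

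In adult flies most mitochondrial ribosomal protein genes were lower in males than in females. Of the 66 member probe sets, 58 were lower in males and 1 higher at an adjusted p under 0.05 (limma, all 11 arrays), where 32.8% of all 13966 probe sets were called lower and 31.7% higher. The median male over female difference was -0.68 (log2) over the members, which is 1.60-fold lower in males, against 0.03 over all probe sets. Every male array lay below every female array for 54 of the 66, where 29.8% of all probe sets did so, and for none did every male array lie above, where 25.6% of all did. Without the wt male array the counts were 58 lower and 1 higher, the median was -0.64, and 55 members had separate arrays, where 31.0% of all probe sets did. These are bulk samples of adult flies, in which fewer cells of a type and less RNA per cell cannot be told apart.

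The member with the lowest difference was mRpL12, whose bacterial counterpart L7/L12 forms the stalk that recruits translation factors. Its probe set 142454_at read 6.67, 6.83 and 6.74 (log2 intensity) in mnn- males, 6.93 in the wt male and 6.80 in the control male, against a lowest of 8.01, a median of 8.11 and a highest of 8.31 on the 6 female arrays. All 5 male arrays lay more than 1 log2 unit below all females, a difference of -1.33 ± 0.08 (log2, SE; limma, adjusted p = 4.71e-08). The next was mRpL1, the counterpart of the mobile L1 stalk protein beside the exit site, at 5.76, 6.01 and 6.15 in mnn- males, 6.14 in the wt male and 6.27 in the control male, against 7.16, 7.34 and 7.41 (lowest, median, highest) in females. The sexes were again apart, by -1.23 ± 0.09 (adjusted p = 3.98e-07, limma).

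Of the large-subunit proteins, mRpL39 has no bacterial counterpart and mRpL17 is the counterpart of a protein near the peptide exit. In mnn- males mRpL39 read 6.20, 6.37 and 6.27, in the wt male 6.19 and in the control male 6.29, against 7.28, 7.39 and 7.46 (lowest, median, highest) in females. For mRpL17 the values were 6.44, 6.48 and 6.45 in mnn- males, 6.59 in the wt male and 6.62 in the control male, against 7.56, 7.68 and 7.77 in females. Neither gene showed overlap, and the differences were -1.16 ± 0.07 for mRpL39 and -1.15 ± 0.07 for mRpL17. The small-subunit gene mRpS26 (-1.08 ± 0.07) and the large-subunit gene mRpL46 (-1.07 ± 0.07), both of mitochondria-specific proteins, came next.

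**Figure D1:**
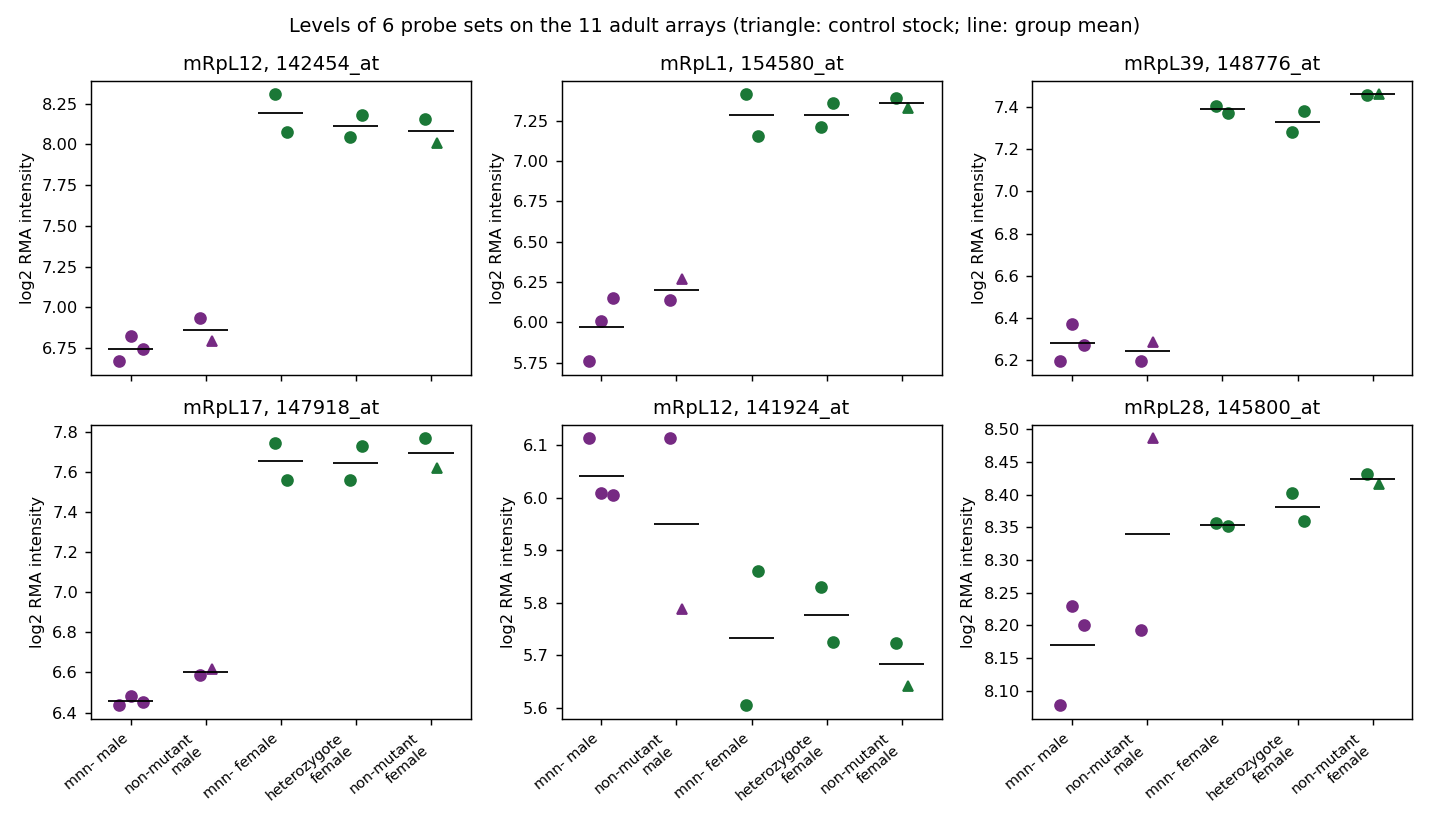
Levels of 6 member probe sets on the 11 adult arrays (y axis, log2 RMA intensity, a scale of its own for each panel that does not start at 0), with arrays as points, the control stock as triangles and group means as lines. For mRpL12 142454_at, mRpL1, mRpL39 and mRpL17 all males lie below all females, whereas mRpL12 141924_at and mRpL28 overlap between the sexes.

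The small-subunit gene mRpS31 varied most among males. It read 5.82, 6.06 and 6.06 in mnn- males, 5.49 in the wt male and 6.63 in the control male, against 6.88, 6.95 and 7.26 (lowest, median, highest) in females, a difference of -1.02 ± 0.19 (adjusted p = 0.000528, limma). The remaining members of the 12 lowest were mRpL54 (-0.97 ± 0.08), mRpL3 (-0.97 ± 0.09), mRpS18A (-0.95 ± 0.08), mRpL50 (-0.93 ± 0.07) and mRpL49 (-0.93 ± 0.11), with adjusted p-values between 3.51e-07 and 1.36e-05 (limma). The bacterial counterpart of mRpL3 lies near the peptidyl transferase centre, mRpS18A is one of several relatives of bacterial S18, and mRpL54, mRpL50 and mRpL49 are mitochondria-specific. In all 5 of these genes the highest male array was below the lowest female array.

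For mRpL11 and mRpL12 the probe sets disagreed. The second probe set of mRpL12, 141924_at, was the 1 member called higher in males, at 6.11, 6.01 and 6.01 in mnn- males, 6.11 in the wt male and 5.79 in the control male, against 5.60, 5.72 and 5.86 in females. Its groups overlapped through the control male, and the difference was 0.29 ± 0.09 (adjusted p = 0.0118, limma), opposite in sign to that of 142454_at, so the direction for mRpL12 depends on the probe set. The call was lost without mnn- female array 7 (0.23, adjusted p = 0.0609) and without both wt flies (0.23, adjusted p = 0.0608). For mRpL11, a protein at the base of the stalk, 149898_at gave -0.62 ± 0.08 and 142024_at gave 0.04 ± 0.08, with only the first past the threshold.

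Besides mRpL11 142024_at, 6 probe sets did not pass. They were mRpL2 (-0.21 ± 0.10), mRpS9 (-0.19 ± 0.08), mRpS6 (-0.18 ± 0.08), mRpL28 (-0.13 ± 0.08), mRpL51 (-0.13 ± 0.08) and mRpL42 (-0.09 ± 0.09), with adjusted p between 0.0546 and 0.420 (limma). In mRpL28 the overlap came from the control male, which read 8.49, against 8.08 to 8.23 in the other males and 8.35 to 8.43 in females. Of the members called lower, those nearest the threshold were mRpL33 (-0.52 ± 0.15, adjusted p = 0.00979) and mRpS33 (-0.25 ± 0.07, adjusted p = 0.0087).

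**Figure D2:**
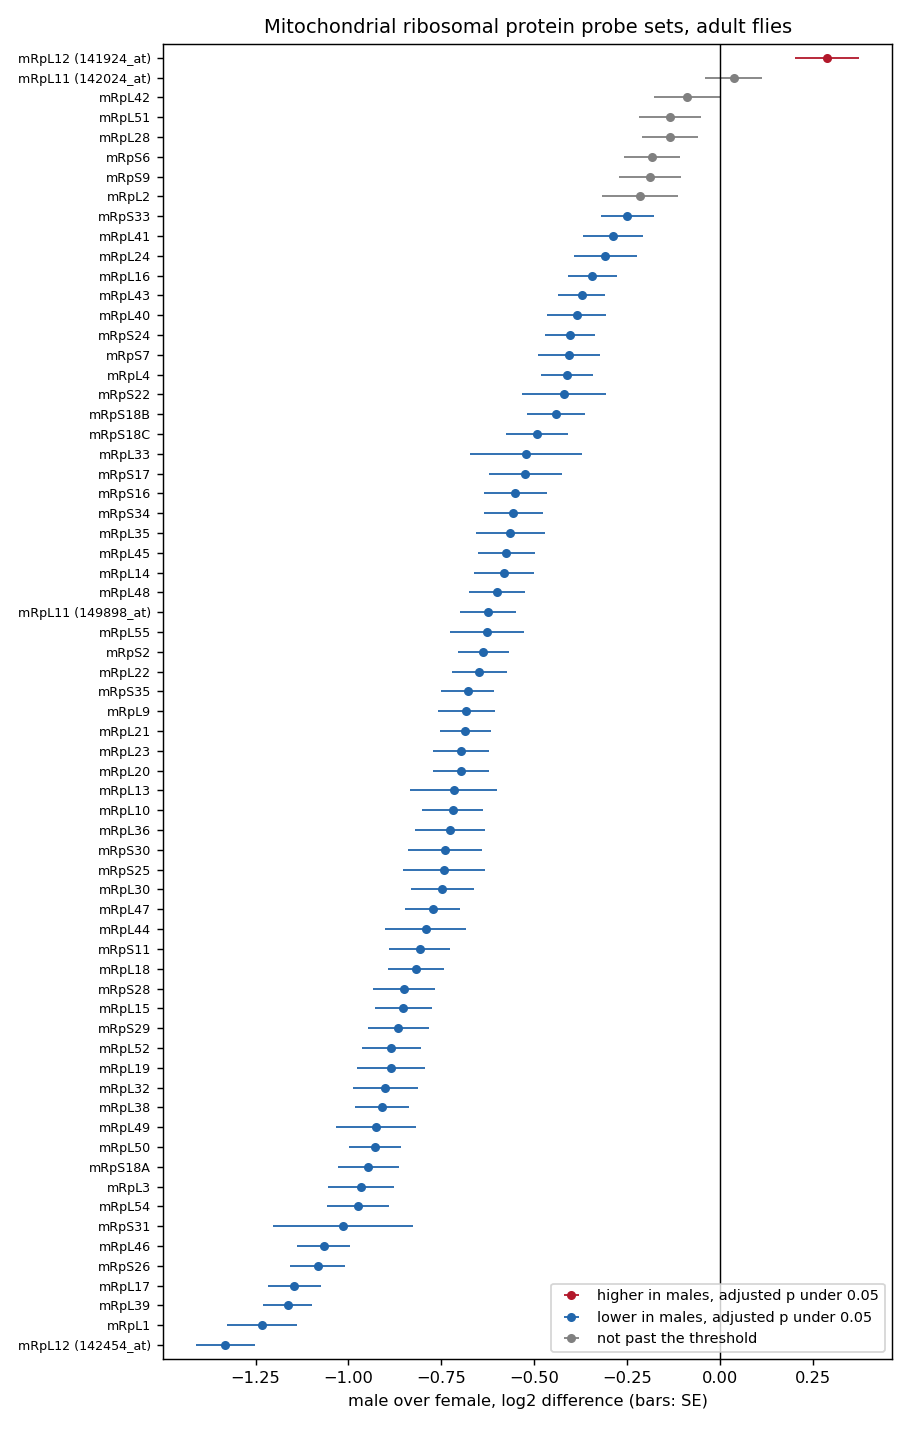
Male over female difference of each of the 66 member probe sets (x axis, log2; points are fitted differences, bars standard errors), ordered from highest to lowest. Of the 66, 58 passed the threshold as lower in males, 1 as higher (mRpL12 141924_at, 0.29), and 7 did not pass.

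Members of both subunits and of both the X chromosome and autosomes were lower in males. Large-subunit members had 39 of 45 lower and a median of -0.70, and small-subunit members 19 of 21 lower and a median of -0.56. The subunits here follow the gene names, and mammalian structures place the counterparts of mRpS18A and mRpS30 in the large subunit. The RefSeq table puts 10 of the member probe sets on the X chromosome, of which males have a single copy. All 10 were lower in males, with a median of -0.74, and 48 of the 56 others were lower, with a median of -0.66. Over all probe sets, 32.8% were called lower in males. The share among all X-linked probe sets was not worked out, so the 10 cannot be set against it. The difference between these groups of members was not tested.

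In mnn- flies alone (3 males, 2 females) 57 of 66 were lower in males and 1 was higher, where 30.4% of all probe sets were called lower and 28.1% higher. In non-mutant flies alone (2 males, 2 females) 54 were lower and none higher, where 28.7% of all were called lower and 24.7% higher. The medians were -0.68 in mnn- and -0.63 in non-mutant flies. Without the wt male the non-mutant count was 50 lower and the median -0.58. The test of the difference between them, male minus female of the mnn- minus non-mutant difference, called 0 of 66 members and 0 of all probe sets (limma), with 1 member at an unadjusted p under 0.05, where 4.56% of all were. The median of that difference was -0.001. Without the wt male it was -0.11, with 0 members called and 3 at an unadjusted p under 0.05, where 8.23% of all were.

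**Figure D3:**
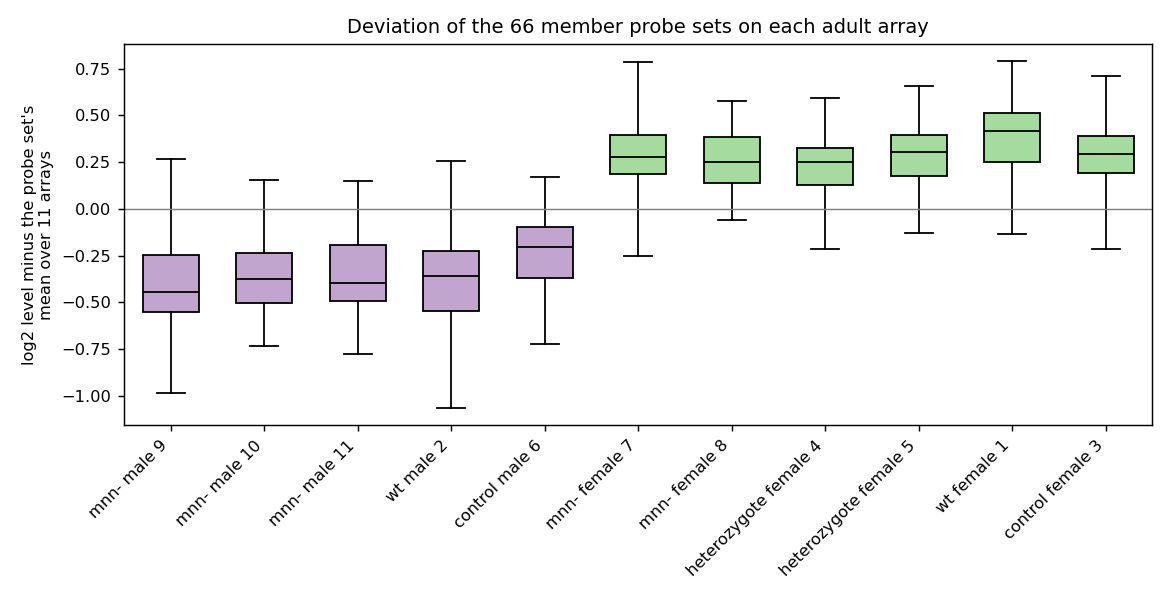
Deviation of the 66 member probe sets from their own mean over the 11 arrays (y axis, log2), by array, with boxes for quartiles, centre lines for medians and whiskers for the lowest and highest member. Medians lie between -0.45 and -0.20 on the male arrays and between 0.25 and 0.42 on the female arrays.

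Most other listed genes of mitochondrial gene expression were lower in males too, where 32.8% of all probe sets were called lower and 31.7% higher. The mitoribosomal genes with older names, bonsai (S15) and tko (S12), were both lower, at -1.17 ± 0.07 and -0.71 ± 0.07 (log2, SE). Of 7 probe sets of mitochondrial translation factors, 5 were lower, among them the elongation factor gene mEFG1 (-1.01 ± 0.08), and 2 were higher, mEFTs (0.74 ± 0.06) and mEFTu2 (0.64 ± 0.07). Of 15 probe sets of mitochondrial aminoacyl-tRNA synthetases, which charge the organelle's tRNAs, 10 were lower, the lowest AspRS-m (-1.02 ± 0.07), and 2 were higher, CysRS-m (1.70 ± 0.07) and TrpRS-m (1.36 ± 0.08). Of 10 probe sets for replication, transcription and RNA of the mitochondrial genome, 9 were lower, led by the single-strand binding protein gene mtSSB (-2.43 ± 0.09) and followed, among others, by TFAM, which packages the genome (-1.03 ± 0.06).

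Most nuclear genes listed for the respiratory chain and ATP synthase, most of whose complexes also hold products of the mitochondrial ribosome, went the other way. Of 69 probe sets, 62 were higher in males and 1 lower, with a median of 0.67 (log2). Over all probe sets 31.7% were called higher and 32.8% lower. The highest were COX4L (4.27 ± 0.06) and COX5BL (3.37 ± 0.09), variants of cytochrome c oxidase subunits, and COX4 itself was higher by 0.68 ± 0.08. Both variants read low in females, with means of 3.22 and 4.38 against 7.56 and 7.78 in males (log2 intensity). The list was taken by symbol and pools such variants with the main subunits. Its count and median were not worked out without them. Cytosolic ribosomal protein genes, which serve the other translation system of the cell, had 31 of 37 probe sets lower in males and 6 higher, with a median of -0.43. The difference between this list and the mitochondrial ribosomal proteins was not tested.

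**Figure D4:**
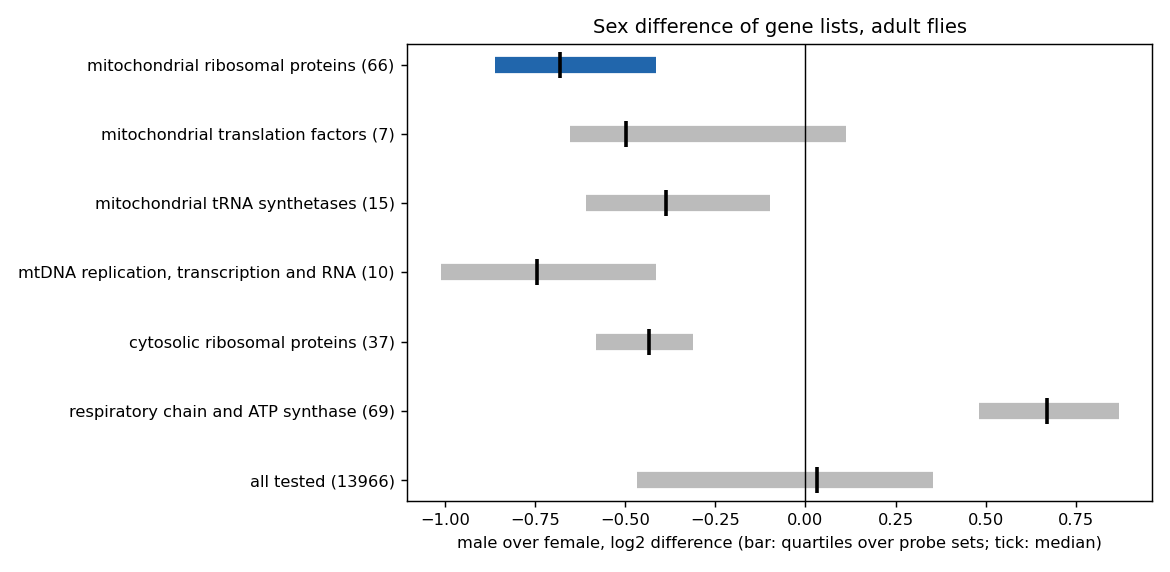
Male over female difference (x axis, log2) for the members, 5 other gene lists and all tested probe sets, with the number of probe sets in brackets, bars for the quartiles and ticks for the median. The median is -0.68 for the mitochondrial ribosomal proteins and 0.67 for the respiratory chain and ATP synthase.

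Markers of tissues that differ between the sexes moved with this comparison. All 12 ovary and female germ line marker probe sets were lower in males (median -3.79, log2), with array means of 5.49 to 7.80 in males and 9.45 to 10.33 in females. For the testis 15 of 18 marker probe sets were higher in males (median 3.01), with array means of 6.68 to 6.85 in males and 4.19 to 4.29 in females. All 7 of the accessory gland and 10 of the 12 of flight muscle were higher in males, with medians of 4.98 and 1.22. Of all probe sets, 32.8% were called lower in males and 31.7% higher. The defining ovary gene osk read 3.13 to 6.20 in males, highest in the wt male, and 9.16 to 9.51 in females (log2 intensity). The part of these tissues in the members' difference was not tested.

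Loss of Mnn1 in adults passed no test for any member. For mnn- over non-mutant, averaged over the sexes, 0 of 66 members were called (limma), where 0.0358% of all probe sets were, and 8 members were at an unadjusted p under 0.05, where 7.31% of all probe sets were. The member coefficients were below 0 for 57 of 66 probe sets, where 51.0% of all were, with a median of -0.08 (log2) against -0.002 over all. The size of this shift moved with single arrays. Without the wt male 0 members were called, 20 were at an unadjusted p under 0.05, where 14.1% of all were, 56 were below 0, where 46.4% of all were, and the median was -0.11. The median was -0.04 at its nearest to 0 when another array was left out.

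The 6 members with the smallest p-values did not pass. mRpS33, a mitochondria-specific small-subunit protein, read 6.76 and 6.72 in mnn- females against 6.99 and 6.83 in non-mutant females, and 6.53, 6.36 and 6.41 in mnn- males against 6.71 and 6.73 in non-mutant males. All mnn- arrays lay below the non-mutant arrays of their sex, a difference of -0.23 ± 0.07 (adjusted p = 0.518, limma). The values of mRpL9 were 7.58 and 7.50 in mnn- females against 7.81 and 7.72 in non-mutant females, and 6.83, 6.86 and 6.89 in mnn- males against 6.92 and 7.24 in non-mutant males, also without overlap (-0.22 ± 0.08, adjusted p = 0.551). Together with mRpL15 these were the 3 members lower without overlap within each sex, where 2.46% of all probe sets were, and mRpL11 142024_at was the 1 member higher without overlap, where 2.03% of all were. The others of smallest p were mRpS17 (-0.29 ± 0.10), mRpL11 142024_at (0.20 ± 0.08), mRpL23 (-0.20 ± 0.08) and mRpS16 (-0.21 ± 0.08), with adjusted p between 0.551 and 0.604 (limma).

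By sex, 0 of 66 members were called for mnn- over non-mutant in females and 0 in males (limma), where 0.00716% and 0.0286% of all probe sets were. At an unadjusted p under 0.05 the numbers were 0 in females, where 4.03% of all were, and 4 in males, where 8.48% of all were. All mnn- arrays lay below the non-mutant arrays for 17 members in females, where 17.1% of all probe sets did so, and for 16 in males, where 10.5% did. The medians were -0.07 in females and -0.11 in males. Without the wt male array 0 members were called in males, 18 were at an unadjusted p under 0.05, where 14.9% of all were, the median was -0.15, and the 3 mnn- males lay below the 1 control male for 46 members, where 27.5% of all did. Without the control male array the males' median was -0.002, and without the wt female array the females' median was -0.02. The size of the shift in each sex thus changed with the non-mutant array left out. With so few non-mutant arrays per sex, which of them carries the shift cannot be told apart. The lowest member differences in males were mRpS17 (-0.44 ± 0.13) and mRpL52 (-0.37 ± 0.11), neither past the threshold (adjusted p = 0.341 and 0.312, limma).

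Loss of 1 copy passed no test for any member either. For heterozygous over non-mutant females 0 of 66 members were called, where 0% of all probe sets were, 1 was at an unadjusted p under 0.05, where 2.21% were, and 54 were below 0, where 44.5% of all were, with a median of -0.07. That median was -0.02 without the wt female, -0.12 without the control female, -0.04 without heterozygous array 4 and -0.11 without heterozygous array 5. Between mnn- and heterozygous females 0 members were called (limma), where 0% of all were, and 0 were at an unadjusted p under 0.05, where 4.59% of all were. There 29 were below 0, where 54.4% of all were, and the median was 0.005. The comparisons with non-mutant females share those 2 control arrays. The deviations of the members' median from the mean of all arrays were 0.27 and 0.25 on the mnn- female arrays and 0.25 and 0.30 on the heterozygous ones, against 0.42 for the wt female and 0.29 for the control female. The wt female alone lay above the rest.

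Other lists and markers were read for mnn- over non-mutant beside the members, where 51.0% of all probe sets were below 0 and 49.0% above. Respiratory chain and ATP synthase probe sets were below 0 in 52 of 69 (median -0.15, log2), none called. Cytosolic ribosomal protein probe sets were above 0 in 27 of 37 (median 0.05), none called. Both lists used all arrays, and their values without the wt male array were not worked out. Ovary markers were below 0 in 10 of 12 (median -0.88), of which none was called, with medians of -0.04 in females and -1.31 in males, where the wt male array stands among the non-mutant flies. Without that array the ovary markers were below 0 in 6 of 12, with medians of 0.005 over both sexes and -0.03 in males. Flight muscle markers were below 0 in 7 of 12 (median -0.13), with 2 called lower, where 0.0358% of all probe sets were. These 2 were Act88F (-1.10, adjusted p = 0.0294, limma) and fln (-0.97, adjusted p = 0.0404, limma). The part of these tissues in the members' shift was not tested.

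The non-mutant stocks differed at some probe sets, but at no member in the fit of all arrays. For control over wt, 0 of 66 members were called (limma), where 0.494% of all probe sets were, and 5 were at an unadjusted p under 0.05, where 10.6% were. The member with the smallest p was mRpS31, at 7.26 in the control female and 6.63 in the control male, against 6.93 in the wt female and 5.49 in the wt male (0.74 ± 0.16, adjusted p = 0.0795, limma). It passed when wt female array 1 (1.01, adjusted p = 0.0144) or control female array 3 (0.99, adjusted p = 0.0386) was left out, while without wt male array 2 it was 0.46 (adjusted p = 0.543) and without control male array 6 0.49 (adjusted p = 0.768). Without the wt male 0 members were called and 6 were at an unadjusted p under 0.05, where 6.87% of all were.

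In mnn++ embryos no mitochondrial ribosomal protein spot passed the threshold. For mnn++ over the mean of both controls, with 4 windows as replicates, 0 of 128 spots were called (limma), where 0.260% of all 30377 tested spots were (0.221% higher, 0.0395% lower), and 11 were at an unadjusted p under 0.05, where 11.4% of all were. Of the members 69 were above 0 and 59 below, where 48.0% of all spots were above, with a median of 0.004 (log2 ratio) against -0.003 over all spots. Differences between the spots of one gene measure the noise between spots only, as these share arrays, dyes and samples. Over 62 genes the first and second spot correlated at r = 0.709, and 46 genes had the same sign on both. Genes are not independent replicates.

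The smallest p-values were those of mRpS30 and mRpL39. Spot 17849 of mRpS30, a mitochondria-specific protein, read 0.05, 0.13, 0.06 and 0.15 over cntrl1 and 0.37, 0.21, 0.33 and 0.16 over cntrl2 at 2-4, 4-6, 6-8 and 2-16 h (log2 ratios, dye orientations averaged). All 8 comparisons were above 0, with a mean of 0.18 ± 0.03 (SE, adjusted p = 0.0598, limma), but by array the cntrl1 ratios were 0.19 to 0.50 with mnn++ in Cy3 and -0.26 to 0.03 with mnn++ in Cy5. The second mRpS30 spot, 18505, was above 0 in 7 of the 8 and read -0.14 over cntrl1 at 6-8 h.

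For mRpL39, spot 4046 read 0.14, 0.02, 0.10 and 0.0025 over cntrl1 and 0.61, 0.34, 0.28 and 0.09 over cntrl2 at 2-4, 4-6, 6-8 and 2-16 h. Its mean was 0.20 ± 0.05 (adjusted p = 0.120, limma), and that of spot 4698 was 0.19 ± 0.04 (adjusted p = 0.0693). Both spots were further from 0 over cntrl2, at 0.33 ± 0.08 and 0.29 ± 0.07, and cntrl1 over cntrl2 for spot 4046 was 0.26 ± 0.08 (adjusted p = 0.429). That difference is worked out from the same mnn++ arrays, as the ratio over cntrl2 minus the ratio over cntrl1, and is no separate measurement. The 2 arrays that set the controls side by side at 2-16 h read 0.42 with cntrl1 in Cy3 and -0.02 with cntrl1 in Cy5. The other spots among the 6 smallest p-values were mRpS33 24346 (0.11 ± 0.04), mRpL10 18074 (0.11 ± 0.04) and mRpL17 23775 (0.10 ± 0.04), with adjusted p between 0.271 and 0.356 (limma).

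Against cntrl1, 0 of 128 member spots were called, where 0% of all spots were, and 2 were at an unadjusted p under 0.05, where 6.91% of all were. Of the members 74 were above 0 and 54 below, where 50.1% of all spots were above and 49.9% below. Against cntrl2, 0 were called (limma), where 0.181% were (0.161% higher, 0.0198% lower), and 15 were at an unadjusted p under 0.05, where 10.8% were. The lowest of the 6 members named against cntrl2 was mRpL1 12325, at -0.28, -0.20, -0.25 and -0.09 at 2-4, 4-6, 6-8 and 2-16 h (-0.21 ± 0.05, adjusted p = 0.205). Over cntrl1 the same spot read 0.05, 0.04, 0.10 and -0.002, and its cntrl1 over cntrl2 difference, worked out from these ratios, was -0.25 ± 0.07 (adjusted p = 0.401). On the 2 arrays of the controls alone it read 0.01 and -0.11. For cntrl1 over cntrl2, 0 members were called (limma), where 0.0395% of all spots were (0.0362% higher, 0.00329% lower), and 11 were at an unadjusted p under 0.05, where 7.67% of all were.

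No window on its own gave a called member either, and in each window 0% of all spots were called (limma). At 2-4, 4-6, 6-8 and 2-16 h, 81, 75, 48 and 61 of the 128 spots were above 0, where 48.3%, 49.0%, 49.6% and 50.7% of all spots were. At 6-8 and 2-16 h, 80 and 67 members were below 0, where 50.4% and 49.3% of all spots were. The members had medians of 0.03, 0.02, -0.01 and -0.004 (log2 ratio). At an unadjusted p under 0.05 the numbers were 9, 16, 3 and 1, where 7.33%, 10.3%, 5.23% and 2.68% of all spots were. The only spread in this fit is that between the 2 controls of a window. The test of a difference among 2-4, 4-6 and 6-8 h called 0 members and 0% of all spots, with 6 members at an unadjusted p under 0.05, where 4.19% of all were.

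**Figure D5:**
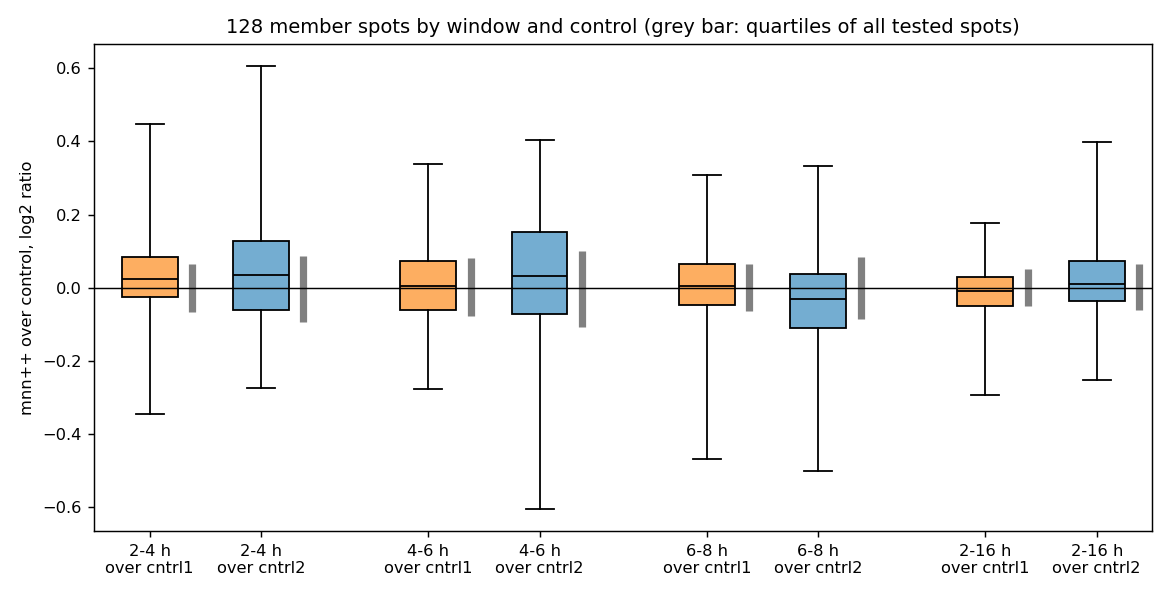
Log2 ratios of mnn++ over each control for the 128 member spots by collection window (y axis; orange for cntrl1, blue for cntrl2), with boxes for quartiles and whiskers for the lowest and highest spot, beside grey bars for the quartiles of all tested spots. Member medians lie between -0.03 (6-8 h over cntrl2) and 0.04 (2-4 h over cntrl2), within the quartiles of all spots.

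At 2-4 h the smallest p-values belonged to mRpL12 1611, mRpL52 18839 and mRpL39 4046. The mRpL12 spot read 0.31 over cntrl1 and 0.29 over cntrl2 (0.30 ± 0.06, adjusted p = 0.620, limma), but by array it read 0.51 and 0.57 with mnn++ in Cy5, against 0.11 and -0.001 with mnn++ in Cy3. The other mRpL12 spot, 2267, read 0.03 over cntrl1 and -0.07 over cntrl2 in that window. At 4-6 h the smallest were both spots of mRpL54, at -0.17 and -0.26 over cntrl1 and -0.61 and -0.32 over cntrl2 (-0.39 ± 0.09 and -0.29 ± 0.07, adjusted p = 0.352 and 0.354, limma). In the other windows these spots read between -0.08 and 0.23. At 6-8 h the smallest p-value was that of mRpS33 25022 (0.26 ± 0.08, adjusted p = 0.913) and at 2-16 h that of mRpS31 2831 (0.15 ± 0.06, adjusted p = 1.00).

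Signs that held in every comparison were few. The spots mRpL28 19128, mRpL39 4046 and mRpS30 17849 had all 8 window-by-control ratios above 0, 3 of 128, where 1.18% of all spots were, and none was below 0 in all 8, where 1.02% of all were. On all 16 arrays none had a single sign. The members' median was above 0 on 7 of the 8 arrays with mnn++ in Cy3 (-0.01 to 0.08) and below 0 on 6 of the 8 with mnn++ in Cy5 (-0.08 to 0.01).

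Markers of embryo age lay to one side of 0 in some windows. At 2-4 h all 14 spots of early zygotic genes were below 0 (median -0.26, log2 ratio), where 51.7% of all spots were. At 2-16 h all 10 spots of late cuticle genes were below 0 (median -0.26), where 49.3% of all were. None of these marker spots was called. On the 6-8 h arrays with mnn++ in Cy3 the early zygotic median was 0.05 over cntrl1 and -0.07 over cntrl2. The late cuticle median on those arrays was -0.16 over cntrl1 and 0.04 over cntrl2. By array and control the shifts were unequal: at 2-4 h the early zygotic median was 0.04 and -0.24 over cntrl1 and -0.30 and -0.37 over cntrl2, and at 4-6 h it was -0.06 on both cntrl1 arrays and -0.13 and -0.17 over cntrl2. The late cuticle median at 2-4 h was -0.05 and -0.03 over cntrl1 and 0.15 and 0.21 over cntrl2, and at 4-6 h 0.16 and -0.03 over cntrl1 and 0.14 and 0.16 over cntrl2. At 2-16 h it was -0.31 and -0.01 over cntrl1 and -0.37 and -0.29 over cntrl2. The member medians at 2-4 and 2-16 h were 0.03 and -0.004, and the part of embryo age in them was not tested. Across the 60 genes on both arrays, the embryo mean ratio and the adult male over female difference correlated at r = 0.044, as a description over genes that share arrays.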

How the data were processed

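Per the submitters' processing notes, limma 2.12.0 was used for the embryo arrays, and the deposited values are log ratios per spot. Their log base and sign are not stated, and they were read as log2, the limma convention. Swapped arrays had been turned before deposit: a difference between the controls worked out through mnn++ at 2-16 h correlated with the direct arrays at r = 0.301 as deposited and 0.0927 with swapped arrays turned again. All ratios were multiplied by -1. For adults the authors used RMA in affy 2.12.0, as the submitters' processing notes list, and deposited log2 intensities whose array medians lay between 5.46 and 5.53. The genome build is not given in the sources used here, and no coordinates are given.

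Of 31464 embryo spots, 1008 were empty on all arrays and 79 missing on 1 array, which left 30377 tested. The 44 AFFX controls among 14010 probe sets were not used, and 13966 were tested. Among tested spots 25150 name a single gene, 146 several and 5081 none, and among tested probe sets 12443, 327 and 1196. All 128 member spots and 66 member probe sets matched RefSeq symbols.

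Dye orientations were averaged first (8 comparisons of a window and control). The mean over windows used n = 4, and window effects came from all 8 comparisons in 1 fit. Adult contrasts used all 11 arrays with a level per sex and genotype class. limma 3.58.1 (lmFit, eBayes) in R 4.3.3 gave two-sided tests, with Benjamini-Hochberg adjustment over all spots or probe sets and a threshold of 0.05. Errors are SE of the fits. Arrays hold no read counts, so their number limits the precision.

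The members, gene lists and tests were chosen with earlier results of these data known. Where 5 or more members passed, up to 12 of each direction with the most extreme differences were named, and otherwise those that passed and the 6 smallest p-values. Genes whose probe sets pass with opposite signs were named, and 2 to 4 genes per other list. Other members, such as those that did not pass or lie near the threshold, were chosen after their values were seen. So were the marker genes Yp1, osk, Cp36, bam, Act88F and fln. Alternatives were the normalization, filters, probes averaged per gene, variance priors, array weights, each control, each stock, males and females paired by stock, and arrays or windows left out. The pipeline was tested on simulated data. A planned search of promoters for motifs was not run.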

Additional observations from a re-analysis of the deposited data

Results flagged for a closer look

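In 90 groups of 4 to 6 values, 12 had a lowest or highest value whose gap to the next was large against the range of the group. Chance would flag about 1 in 20 of separate groups that were not picked by their values. Apart from the members' medians, these groups are of members named for extreme differences or small p-values in the same data. They also share arrays, so that rate does not apply to them. On the wt female array mRpS25 read 6.70 (next highest female 6.21), mRpL41 5.48 (5.17), mRpL10 7.71 (7.46), mRpL49 7.30 (7.05) and mRpL15 8.25 (8.06), all in log2 intensity. The members' median deviation on the same array, 0.42, also stood apart from the next female array at 0.30. On the control male array mRpL9 read 7.24 (next highest male 6.92), mRpL54 6.60 (6.35) and mRpS9 7.06 (6.82). On the wt male array mRpL15 read 7.43 (7.18) and mRpL11 149898_at 6.28 (6.03). In embryos mRpL18 spot 16282 read -0.47 over cntrl1 at 6-8 h, where the next lowest window was -0.08 (log2 ratio). All 12 lie on a non-mutant array or in 1 embryo comparison. Naming members by contrasts with non-mutant flies favours flags on those arrays, so no conclusion is drawn from where they lie.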

How the results depend on the processing

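The count of members past the threshold for male over female lay between 54 and 63 of 66 in 21 alternatives, against 59, and between 58 and 63 when 1 array was left out. Within mnn- flies it lay between 50 and 58, against 58, and within non-mutant flies between 43 and 56, against 54. The members' median for male over female was -0.55 after quantile normalization and -0.61 without wt flies. With probe sets of one gene averaged, mRpL12 gave -0.52 in all flies and -0.57 in mnn- flies, the sign of 142454_at. In mnn- flies alone 141924_at did not pass in 6 of the 11 fits that left out an array, and mRpS31 did not pass there without mnn- female array 7 (-0.90). For mnn- over non-mutant no alternative called a member. For control over wt the count lay between 0 and 1 when an array was left out, the call being mRpS31. In embryos 1 spot passed with arrays scaled to one median absolute deviation (mRpS30 17849), 2 passed against cntrl2 alone with each array as its own value (both mRpL39 spots), and 2 passed in that setting at 2-4 h. Against a single control 3 named spots changed sign: mRpL10 18074 was -0.0191 over cntrl1, mRpL15 15994 was -0.0255 over cntrl1 at 2-16 h, and mRpL35 6600 was 0.0125 over cntrl2 at 6-8 h. Turning the Cy5 arrays round again, an alternative added after seeing the data, turns dye bias into signal. It called 38 member spots over both controls, 21 against cntrl1 and 10 against cntrl2. The share of all spots called in that setting is not given here, so these counts are no trait of the members. With the Cy5 arrays turned, mRpS33 24346 was -0.0479 over both controls. There mRpS16 31001 was 0.0923 and mRpS34 11180 0.0513 over cntrl1, and mRpL1 12325 was 0.152 over cntrl2. No other named member changed sign in any alternative; the causes were not tested. Array numbers are unique and pair no samples, but males and females share a stock or alleles in 4 pairs. With that stock as a replicate block, an alternative added after seeing the data, 59 members passed for male over female. Of these 58 were lower and 1 higher, with a median of -0.68 over the members, where 32.0% of all probe sets passed as lower and 30.3% as higher. The shares of all probe sets called in the other alternatives of this section are not given here. Signal over background was not used here.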
